A study of Mus musculus with 24 samples.

Results

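Mature B cells of the bone marrow were compared with the combined pro-B and pre-B population of the same animals, in control mice, by RNA sequencing of sorted cells. The comparison used 8 of the 24 libraries of the study, chosen by their sample titles, with 1 mature and 1 pro-B/pre-B library from each of 4 mice. The 4 immature libraries of these mice served to place the middle stage. They also entered the scaling of the levels shown, and so the overlap between groups, but not the main test of mature against pro-B/pre-B cells. All 4 mice were VHL flox/WT, with 1 floxed and 1 wild-type allele of Vhl, and MB1 Cre +/WT, so these controls also carried Cre recombinase, which the Mb1 (Cd79a) locus directs to B lineage cells. The populations are labelled proBpreB B cell, Immature B cell and Mature B Cell. None of the sources used here gives the age or sex of the mice or the surface markers of the sort gates.

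B cells arise in the bone marrow from progenitors that cut and rejoin their immunoglobulin genes. Pro-B and pre-B cells respond to interleukin 7, express the Rag recombinase, pair a new heavy chain with a surrogate light chain, and pass through a burst of division once that pairing succeeds. Immature B cells carry a complete antigen receptor and are tested against self-antigen. Mature B cells are resting cells that circulate between marrow, blood and lymphoid organs and carry the receptors for complement, chemokines and T cell help.

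The 8 libraries held between 8533094 and 11741511 counts, so that 3 counts corresponded to 0.256 to 0.352 CPM (counts per 1000000 counts), and levels below are CPM scaled by the trimmed mean of M-values (TMM). The most abundant 10 genes took 3.90% to 4.67% of the counts in pro-B/pre-B and 8.14% to 11.0% in mature libraries. The ribosomal RNA gene Rn45s averaged 2501 ± 487 and 4995 ± 2403 CPM (SD, n = 4) in these populations, and Lars2, a mitochondrial tRNA ligase gene, 8171 ± 1153 and 18118 ± 6488 CPM, both highest in the mature library of mouse 2 (8322 and 26402 CPM). Their part in the results was not tested. Vhl, the substrate-binding part of a ubiquitin ligase, measured 25.8, 24.8, 23.2 and 27.9 CPM in the 4 pro-B/pre-B libraries and 30.5, 26.4, 27.5 and 32.3 CPM in the mature libraries of the same mice in the same order (log2 difference 0.17, SE 0.13, adjusted p = 0.289). The mature value was the higher of the pair in all 4 mice, the groups overlapped, and the difference did not pass the threshold. Its immature libraries averaged 35.6 ± 8.87 CPM and overlapped both other stages; the step from pro-B/pre-B cells passed (0.46, adjusted p = 0.0147) and the step to mature cells did not (-0.27, adjusted p = 0.175). Mouse 1 was the only mouse with counts of the Y-linked gene Ddx3y at both stages, at 885 counts in pro-B/pre-B and 684 counts in mature cells, and the paired fit compares each mouse with itself.

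Both libraries of each mouse were tested in 1 paired model over 12006 genes. Of these, 59.9% passed an adjusted p of 0.05: 3449 genes (28.7%) were higher and 3744 (31.2%) lower in mature cells, and 6234 genes (51.9%) did not overlap in CPM between the populations. At least 2-fold changes among them numbered 1408 higher (11.7%) and 1985 lower (16.5%). The median log2 change was 0.86 among the higher genes and -1.08 among the lower genes. Called changes of at least 5 on the log2 scale numbered 39 upward and 118 downward. Scaled by library totals alone, all log2 changes moved by -0.26, and 2288 genes were higher and 5144 lower, so that 30.8% rather than 48.0% of the called genes were higher. Changes that passed, for the genes named below, went the same way in all 4 mice, except for Ccnd2 and Rfxap with 3 of 4. In bulk libraries such as these, fewer cells of a type and less RNA per cell cannot be told apart.

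**Figure D1:**
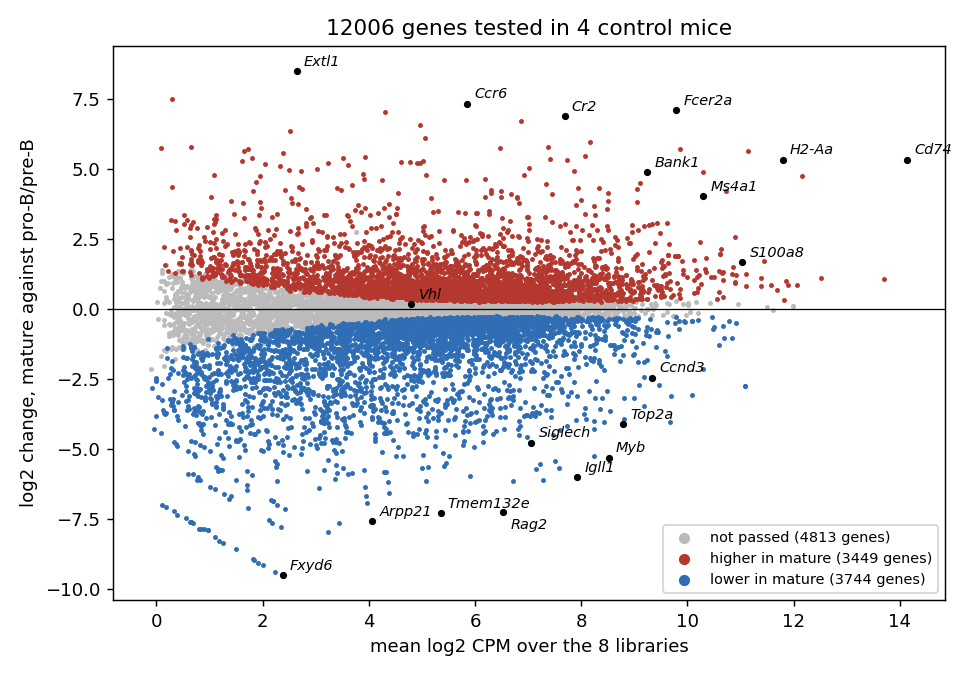
Each point is 1 of 12006 genes; the x axis is the mean log2 CPM over the 8 libraries and the y axis the log2 change of mature against pro-B/pre-B cells, paired by mouse. Red genes (3449) were higher and blue genes (3744) lower at an adjusted p of 0.05, and grey genes did not pass; named points run from Extl1 at the top to Fxyd6 at the bottom, and the straight lines of blue points at low level are genes with few or no counts in mature cells, whose fitted change depends on the prior count.

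The genes that rearrange and first display the immunoglobulin heavy chain were far lower in mature cells. All 7 tested members of the list of surrogate light chain and recombinase genes were lower in mature cells, with a median log2 change of -5.70 against -0.02 over all genes. Rag2, a subunit of the enzyme that cuts immunoglobulin genes, measured 169, 165, 212 and 162 CPM in pro-B/pre-B and 1.09, 1.26, 1.25 and 1.05 CPM in mature libraries (log2 difference -7.27, SE 0.16, adjusted p = 9.24e-11). No mature library reached 1% of the level in its own mouse. Rag1, its partner, fell from 268 ± 37.8 to 5.30 ± 1.45 CPM (SD, n = 4; log2 change -5.70). Dntt, the polymerase that adds untemplated bases at the joins, measured 446, 247, 564 and 194 CPM before and 11.1, 7.20, 9.36 and 1.90 CPM after.

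Igll1, which with Vpreb1 forms the surrogate light chain, measured 412, 313, 833 and 305 CPM in pro-B/pre-B libraries and 11.1, 5.56, 5.37 and 5.61 CPM in mature libraries (log2 difference -6.01, SE 0.28, adjusted p = 1.35e-08). The pro-B/pre-B library of mouse 3 was the highest for Igll1, Dntt and Vpreb1, a spread of over 2-fold within that population that was absent for Rag1 (213 to 297 CPM). Vpreb1 fell by 5.44 and Vpreb2, its close copy, by 5.67 on the log2 scale. Vpreb3, a chaperone-like protein of the receptor chains, fell least, from 914 ± 30.1 to 147 ± 41.0 CPM.

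Members of the end-joining pathway that closes the breaks split. Of 15 tested, 6 were lower (40.0%, against 31.2% of all genes tested) and 4 higher (26.7%, against 28.7%; median log2 change -0.28, and -0.10 without mouse 1). The ligase gene Lig4 fell from 77.4 ± 4.54 to 8.39 ± 2.79 CPM, Xrcc6 (Ku70) from 533 ± 32.0 to 60.2 ± 9.79 CPM and Polm, a polymerase of the joins, from 173 ± 36.1 to 23.5 ± 7.50 CPM. H2afx, the histone variant that marks breaks, fell by 2.57 on the log2 scale. The Ku partner Xrcc5 was higher by 0.71, and Poll, a related polymerase, by 1.44; both were named after their values were seen. The members that did not pass were Mre11a at -0.31, Nbn at -0.28, Trp53bp1 at -0.09, Prkdc at -0.03 and Rad50 at 0.02.

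Receptors of early B cells were mostly lower in mature cells: 9 of 14 fell, 4 rose and Cd34 did not pass (0.71). The shares were 64.3% lower and 28.6% higher, against 31.2% and 28.7% of all genes tested, so the share of rises was that of all genes. Il7r, the interleukin 7 receptor chain, measured 260.1, 304, 288 and 274 CPM in pro-B/pre-B libraries and 4.95, 9.35, 3.24 and 7.80 CPM in mature libraries (log2 difference -5.53, SE 0.21, adjusted p = 7.55e-10). The ranges lay over 25-fold apart. Enpep, the aminopeptidase known as BP-1, fell by 5.66, Il2ra (CD25) by 4.92, and Cd93, the antigen that separates developing from mature B cells, by 4.29 on the log2 scale. Flt3, a receptor of lymphoid progenitors, fell from 32.6 ± 3.12 to 3.25 ± 0.574 CPM. Cd24a fell by 1.5. The 4 members that rose were Cd9 by 0.59, the TSLP receptor chain Crlf2 by 1.32, the lectin-like gene Clec2i by 1.91 and Ptpn14, a phosphatase, by 2.83.

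Transcription factors of progenitors followed the same split, with 7 of 12 lower and 5 higher (median log2 change -1.55). The shares were 58.3% lower and 41.7% higher, against 31.2% and 28.7% of all genes tested. Myb, a factor that early B cells need, measured 616, 709, 659 and 786 CPM in pro-B/pre-B libraries and 23.7, 23.0, 10.5 and 16.4 CPM in mature libraries (log2 difference -5.31, SE 0.20, adjusted p = 8.82e-10). The mature libraries of mice 1 and 2 were the higher ones, at less than 5% of any pro-B/pre-B library. Sox4 fell by 4.28, Erg by 4.20 and Lef1, a Wnt pathway factor, by 3.43 on the log2 scale. Hhex, a homeobox factor, rose from 84.6 ± 12.0 to 302 ± 51.0 CPM, and Foxo1, an activator of Rag transcription, was higher by 0.28 (adjusted p = 0.0466), a call lost without mouse 2, 3 or 4 (adjusted p = 0.180, 0.145 and 0.0768).

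Among 22 B lineage factors, 10 were lower (45.5%, against 31.2% of all genes tested) and 7 higher (31.8%, against 28.7%). The median log2 change was -0.22. Pax5, the commitment factor, measured 38.1, 42.1, 32.8 and 42.5 CPM in pro-B/pre-B and 32.7, 55.7, 46.7 and 46.9 CPM in mature libraries; the groups overlapped and the change of 0.18 did not pass. Ebf1, which acts with Pax5, was lower by 0.41 (adjusted p = 0.0612 without mouse 1), and Pou2af1 (-0.23), Tcf4 (-0.21), Pou2f1 (-0.08) and Irf8 (0.02) did not pass. The E proteins Tcf3 and Tcf12 fell by 1.66 and 2.26 on the log2 scale. Id3, an inhibitor of E proteins, rose by 0.99 while Id2 fell by 1.18. Bcl6, the repressor later used in germinal centres, rose from 19.8 ± 2.52 to 181 ± 36.0 CPM, Mef2c, a factor downstream of the antigen receptor, from 142 ± 25.4 to 678 ± 28.3 CPM, and Pou2f2 (Oct-2) by 2.10 on the log2 scale. Irf4 fell from 269 ± 59.5 to 84.3 ± 13.4 CPM.

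**Figure D2:**
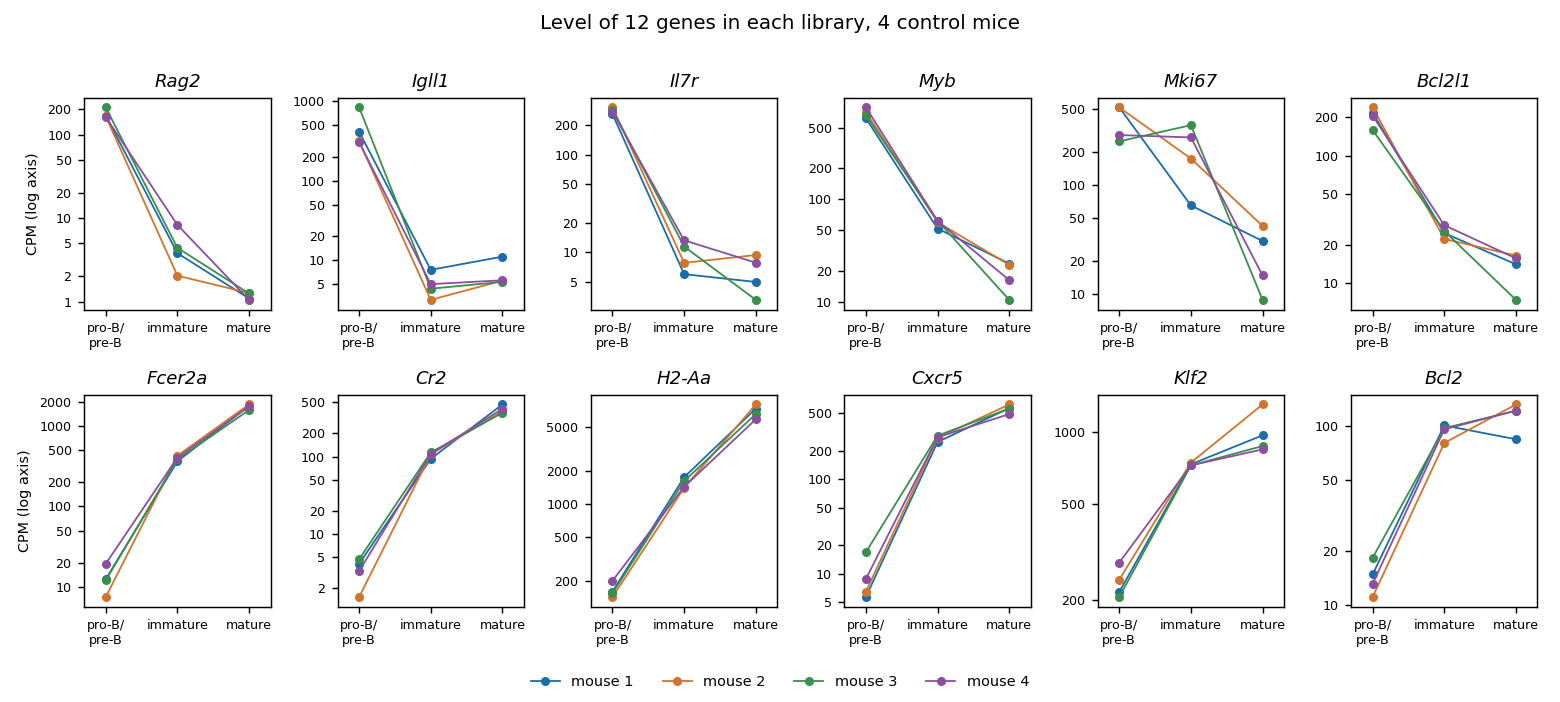
Level in CPM (log axis) of 12 genes in the pro-B/pre-B, immature and mature libraries; each line joins the 3 libraries of 1 of 4 mice. The upper row falls and the lower row rises between the end stages in all 4 mice, and the immature libraries of Mki67 spread from 65.1 to 354 CPM.

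Surface molecules of mature B cells were higher in 19 of 22 tested members and lower in 2 (median log2 change 2.18). Fcer2a (CD23), the low-affinity IgE receptor of follicular B cells, measured 12.5, 7.49, 12.1 and 19.4 CPM in pro-B/pre-B libraries and 1789.8, 1852, 1581 and 1749 CPM in mature libraries (log2 difference 7.11, SE 0.23, adjusted p = 3.34e-10). Cr2 (CD21), the complement receptor, measured 4.15, 1.54, 4.74 and 3.33 CPM and then 469, 383, 366.4 and 411 CPM. For both genes the lowest mature library stood more than 70-fold above the highest pro-B/pre-B library. Icosl, a ligand for T cell help, rose by 5.78, the activation antigen Cd83 by 5.32, Ms4a1 (CD20) by 4.04 and Cd55, a complement regulator, by 3.81 on the log2 scale. The 2 members that fell were Cd1d1, a lipid-presenting molecule, by 1.69 and Slamf6 by 1.12, and Cd44 measured -0.04 and did not pass. Cd80 was below the count filter.

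Antigen presentation by MHC class II had the highest median log2 change of the 36 lists, 3.99 over 16 tested genes, with 14 higher and 1 lower. Cd74, the invariant chain that guides class II molecules, measured 916, 722, 743 and 967 CPM in pro-B/pre-B libraries and 35815, 44076, 30982 and 29138 CPM in mature libraries (log2 difference 5.35, SE 0.20, adjusted p = 6.60e-10). H2-Aa, a class II chain, measured 162, 145, 156 and 203 CPM before and 7277, 7936, 6509.7 and 5832 CPM after. In every mature library these genes were over 25 times the level in the highest pro-B/pre-B library. H2-Eb2 rose by 6.11, H2-DMb2, part of the peptide exchange factor, by 5.74, H2-Eb1 by 5.64 and H2-Oa, part of its inhibitor, by 4.13. Ciita, the coactivator of class II genes, rose from 42.6 ± 6.39 to 556 ± 91.2 CPM. The DNA-binding partners of Ciita moved less, with Rfx5 at 0.80, Rfxank at -0.14, not passed, and Rfxap lower by 0.40 (adjusted p = 0.0415), a call lost without mouse 1, 2 or 4 (adjusted p = 0.231, 0.0787 and 0.0587). H2-Aa, H2-Oa, Ciita, Rfx5 and Rfxap were named after their values were seen.

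Class II promoters share a conserved module that ends in a Y box, the site of the factor NF-Y. The 150 bases before the start of the 3 members with the largest changes that hold the Y box core GATTGG (or CCAATC, its other strand) within that stretch are printed here from RefSeq (GRCm38.p6), 5′ to 3′ on the gene's strand, with the core in capitals. They lie at chr17:34325525-34325674, chr17:34145099-34145248 and chr17:34305717-34305866, all on the plus strand. Each stretch precedes the 1 start the table gives the gene, and that start lies 2020 bases inside the span RefSeq gives H2-DMb2 and 172 bases inside that of H2-Eb2.
H2-Eb2: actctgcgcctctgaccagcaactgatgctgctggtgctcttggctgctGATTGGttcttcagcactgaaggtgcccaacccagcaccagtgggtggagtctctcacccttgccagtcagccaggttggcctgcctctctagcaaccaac
H2-DMb2: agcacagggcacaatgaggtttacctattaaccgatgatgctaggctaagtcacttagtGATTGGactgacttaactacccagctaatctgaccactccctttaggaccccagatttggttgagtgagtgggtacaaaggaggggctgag
H2-Eb1: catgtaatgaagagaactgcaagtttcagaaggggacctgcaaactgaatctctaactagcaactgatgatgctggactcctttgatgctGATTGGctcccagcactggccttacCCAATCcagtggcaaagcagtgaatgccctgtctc
In the 250 bases before the start, the core occurred on either strand in 10 of the 12 class II list genes with an entry (83.3%), in 15 of 29 mitosis genes (51.7%), in 15 of 32 replication genes (46.9%), in 22.5% of the 9106 genes tested with an entry, and in 16.6% of the 27025 genes and 14.6% of the 32851 promoters of the table. A match is a run of letters and was not tested as a binding site.

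Components of the antigen receptor pathway were higher in 19 of 28 tested members and lower in 2 (median log2 change 0.84). Bank1, a scaffold of receptor signalling, measured 44.1, 30.0, 37.2 and 42.6 CPM in pro-B/pre-B libraries and 1206, 1113, 1150.2 and 1186 CPM in mature libraries (log2 difference 4.90, SE 0.13, adjusted p = 1.40e-10). Rasgrp3, an activator of Ras, rose by 4.47 and Nfatc2, a calcium-driven factor, by 3.27. The 2 members that fell were Pik3ap1, an adaptor for PI3 kinase, by 1.12 and the linker Blnk, whose groups overlapped, by 0.39 (adjusted p = 0.0566 without mouse 1); both were named after their values were seen. Cd79a and Cd79b, the signalling chains of the receptor, rose by 1.34 and 1.12, and were also named after their values were seen.

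Inhibitory receptors and phosphatases were higher in 11 of 17 members (64.7%, against 28.7% of all genes tested) and lower in 4 (23.5%, against 31.2%). Fcrl5, an Fc receptor-like inhibitor, rose by 4.95, Btla, an inhibitory partner of HVEM, from 23.2 ± 6.41 to 465 ± 25.3 CPM and Cd22, the sialic acid-binding inhibitor, by 3.07. Lair1, a collagen receptor, fell from 60.0 ± 19.3 to 6.98 ± 1.69 CPM.

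Receptors that guide cells out of the marrow and into follicles differed widely. Of 18 tested, 10 were higher (55.6%, against 28.7% of all genes tested) and 6 lower (33.3%, against 31.2%). Ccr6, a receptor for CCL20, measured 0.738, 0.232, 1.02 and 0.811 CPM in pro-B/pre-B libraries and 104, 99.3, 128 and 127 CPM in mature libraries (log2 difference 7.34, SE 0.21, adjusted p = 2.10e-10). Cxcr5, the follicle-homing receptor, measured 5.63, 6.41, 16.8 and 8.74 CPM and then 569, 623, 564 and 492 CPM. The populations did not overlap for either receptor. Gpr183 (EBI2), a receptor for oxysterols that positions B cells, rose by 5.36. S1pr1, the egress receptor for sphingosine 1-phosphate, rose by 2.84, and Cxcr4, the receptor that retains B cells in marrow, fell by 0.70 (adjusted p = 0.00176, and 0.0762 without the replicate block), with mature libraries at 65.3, 48.4, 122 and 55.9 CPM. The mature library of mouse 3 lay within the pro-B/pre-B range of 83.7 to 138 CPM; both genes were named after their values were seen. Ccr9 fell by 4.34. It is also a marker of plasmacytoid dendritic cells, whose other markers are given below.

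Among 17 tested integrins and adhesion molecules, 9 were higher (52.9%, against 28.7% of all genes tested) and 4 lower (23.5%, against 31.2%). Itgb7, which pairs with the alpha 4 chain for gut homing, rose from 53.6 ± 3.65 to 559 ± 66.6 CPM. Itgax fell by 3.30 and Itga5, a fibronectin receptor chain, by 3.00. Markers of natural killer and plasmacytoid dendritic cells were also lower in mature libraries, as given below, and the part of such cells in the fall of Itgax was not tested.

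Cytokine receptors were higher in 15 of 24 members and lower in 6 (median log2 change 1.20). Il9r rose by 6.57, from 0, 0.154, 1.21 and 1.26 CPM to 57.0, 44.5, 89.2 and 57.5 CPM. The mature libraries stood far above the pro-B/pre-B libraries, where mice 1 and 2 had values below the 3-count limit. Il5ra rose by 3.63, whereas Il7r and Csf2rb2, a receptor chain of the IL-3 family, fell by 5.53 and 3.08.

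Lymphotoxin and NF-kB genes were mostly higher. Of 20 tested TNF receptors and ligands 14 rose and 2 fell, and of 16 NF-kB subunits and inhibitors 12 rose and 2 fell. Ltb and Lta, the chains of lymphotoxin, rose by 4.51 and 5.14, Ltb from 45.6 ± 5.62 to 1055 ± 49.4 CPM. Cd40, the receptor for T cell help, rose by 2.75 and Traf1, an adaptor of TNF receptors, by 2.06. Bcl3, a nuclear IkB protein, rose by 2.40, and the noncanonical pathway genes Nfkb2, Map3k14 (NIK) and Relb by 2.04, 1.86 and 1.48. Chuk (-0.04) and Nfkb1 (0.19) did not pass.

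Of 19 tested immediate early factors 13 were higher and 2 lower. Egr3, induced by receptor signalling, rose by 4.26, Nr4a1 (Nur77), a reporter of antigen receptor signals, by 2.75 and Ier5 by 2.47. Dusp5, a nuclear phosphatase for ERK, fell from 50.4 ± 8.24 to 6.06 ± 2.49 CPM. Toll-like receptors and their partners rose in 12 of 16 cases and fell in 1. Tlr1 rose from 5.54 ± 1.95 to 139.9 ± 21.1 CPM, Tlr3 by 2.76, Tlr4 by 2.16 and Ly86, the partner of Cd180, by 1.93. Neutrophils and monocytes also express Tlr4, and the markers of those cells were higher in mature libraries, as given below; their part in this change was not tested. Unc93b1 (0.18), Ly96 (0.10) and Cd14 (0.94) did not pass.

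Survival genes of the Bcl2 family changed in both directions. Of 15 tested, 8 were higher (53.3%, against 28.7% of all genes tested) and 4 lower (26.7%, against 31.2%). Bcl2l1 (Bcl-xL), an inhibitor of cell death, measured 218, 240.3, 159 and 207 CPM in pro-B/pre-B libraries and 14.0, 16.4, 7.36 and 15.6 CPM in mature libraries (log2 difference -4.0, SE 0.14, adjusted p = 4.73e-10). Bcl2, which has the same role, measured 14.8, 11.0, 18.3 and 13.1 CPM and then 84.4, 132, 122 and 122 CPM (log2 difference 2.98, SE 0.17, adjusted p = 2.25e-08); it was named after its values were seen. The 2 genes were thus at opposite levels at the end stages in all 4 mice. Bcl2a1d and Bcl2a1b, further inhibitors, rose by 4.44 and 4.13; they are near-identical copies whose reads the counting may have split. Bok, a member that promotes cell death, fell by 4.79. Bak1 (-0.40), Bax (-0.14) and Bbc3 (0.15), which also promote it, did not pass.

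**Figure D3:**
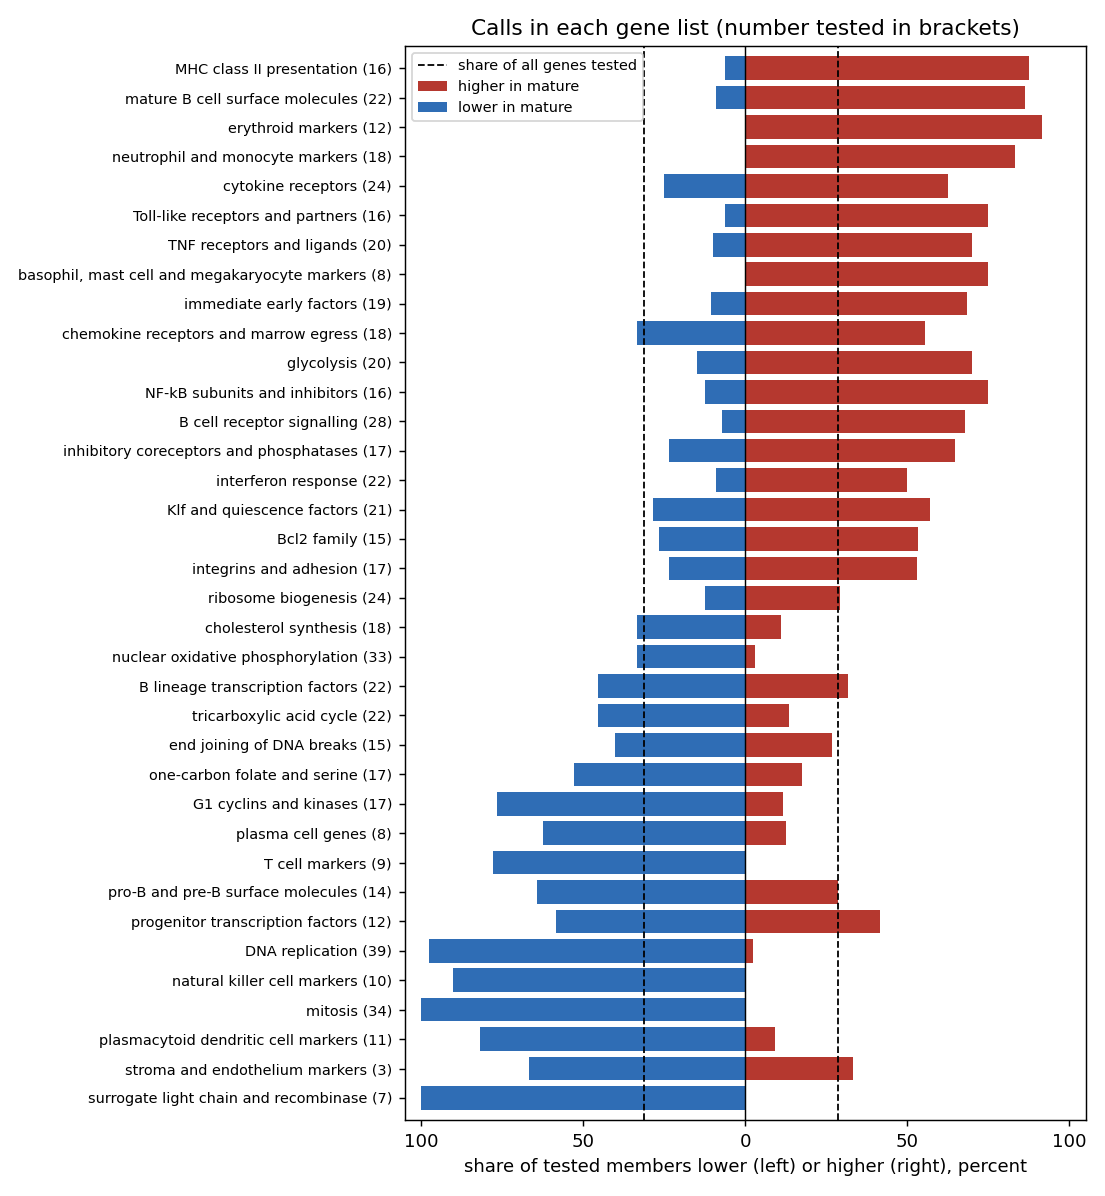
Share of the tested members of each of 36 gene lists that were higher (red, right) or lower (blue, left) in mature cells at an adjusted p of 0.05, ordered by the list's median log2 change. The dashed lines mark the shares over all 12006 genes, 28.7% higher and 31.2% lower; all 34 mitosis genes and 38 of 39 replication genes lie on the lower side.

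Genes of cell division were lower in mature cells nearly without exception. All 34 tested mitosis genes fell, with a median log2 change of -3.66, and 38 of 39 DNA replication genes fell, with a median of -2.07. Mki67, the proliferation antigen Ki-67, measured 515, 514, 251 and 287 CPM in pro-B/pre-B libraries and 30.7, 42.2, 8.86 and 14.8 CPM in mature libraries (log2 difference -4.18, SE 0.18, adjusted p = 1.63e-09). Mice 1 and 2 were higher than mice 3 and 4 in both populations. Top2a, which untangles chromosomes and was named after its values were seen, fell by 4.11, the kinetochore gene Cenpf by 4.36, the spindle motor Kif11 by 4.34 and Hmmr by 4.30. In replication, Mcm10 fell by 3.91, Uhrf1, which maintains DNA methylation, by 3.75, the ribonucleotide reductase subunit Rrm2 by 3.65 and Cdc6, which loads the helicase, by 3.40. The exception was Cdt1, also a loader of the helicase, which rose from 52.7 ± 8.94 to 83.5 ± 15.1 CPM (log2 difference 0.63, SE 0.11, adjusted p = 4.66e-04) and was named after its values were seen.

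Promoters of mitosis genes often hold the cell cycle homology region (CHR), TTTGAA or TTCAAA on the other strand, and those of replication genes sites for E2F factors, searched here as TTTCCCGC or TTTGGCGC and their other strands GCGGGAAA and GCGCCAAA. The 150 bases before the start are printed, as above and with the match in capitals, for Mki67 (chr7:135716380-135716529) and Top2a (chr11:99024190-99024339) on the minus strand and for Cdc6 (chr11:98908001-98908150) and Gins3 (chr8:95633409-95633558) on the plus strand. They were picked, after their values were seen, as lower members with a match in this stretch: the CHR letters in Mki67 and Top2a and the E2F letters in Cdc6 and Gins3 (log2 change -1.69). The Gins3 stretch also holds the CHR letters TTTGAA, left in lower case. The start used lies 442 bases inside the gene's span for Cdc6, 71 for Mki67 and 10 for Top2a.
Mki67: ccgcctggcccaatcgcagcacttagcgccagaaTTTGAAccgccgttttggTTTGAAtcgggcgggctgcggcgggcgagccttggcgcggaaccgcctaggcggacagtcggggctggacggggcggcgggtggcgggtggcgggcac
Top2a: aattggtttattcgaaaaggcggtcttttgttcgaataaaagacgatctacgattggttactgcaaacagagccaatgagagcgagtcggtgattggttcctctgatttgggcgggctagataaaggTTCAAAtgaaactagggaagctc
Cdc6: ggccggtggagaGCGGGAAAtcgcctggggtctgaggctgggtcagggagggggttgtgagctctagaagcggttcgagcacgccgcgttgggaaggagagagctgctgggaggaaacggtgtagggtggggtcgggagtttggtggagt
Gins3: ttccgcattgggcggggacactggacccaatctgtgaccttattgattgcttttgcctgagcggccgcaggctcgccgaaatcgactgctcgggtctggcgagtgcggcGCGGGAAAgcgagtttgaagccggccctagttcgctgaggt
In the 250 bases before the start, the CHR letters occurred in 11 of 29 mitosis genes with an entry (37.9%), 5 of 32 replication genes (15.6%), 12.9% of the genes tested and 18.3% of all genes of the table. The E2F letters occurred in 6 of 32 replication genes (18.8%), 0 of 29 mitosis genes, 2.97% of the genes tested and 1.51% of all genes. Over promoters rather than genes the shares were 16.0% for the CHR and 1.30% for E2F.

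Genes that control entry into the cycle were lower in 13 of 17 cases and higher in 2. Ccnd3, the D cyclin of dividing pre-B cells, measured 1339, 1334, 854 and 727 CPM in pro-B/pre-B libraries and 233, 221, 172 and 149 CPM in mature libraries (log2 difference -2.46, SE 0.11, adjusted p = 3.26e-09). Cdc25c, a phosphatase that starts mitosis, fell by 3.72, Ccnd1 by 3.13 and Mycn by 2.85 (by 4.32 without mouse 2). The list of Klf factors and genes of quiescence went the other way in 12 of 21 cases (57.1%, against 28.7% of all genes tested). Its lower members numbered 6 (28.6%, against 31.2%), and its median log2 change was 0.47. Klf2, which holds lymphocytes in rest and directs their traffic, measured 216, 243, 206 and 287 CPM and then 967, 1298, 873 and 845 CPM (log2 difference 2.02, SE 0.14, adjusted p = 1.06e-07). Klf3 rose by 2.60. The members of this list that fell most were the cell cycle inhibitors Cdkn2c and Cdkn1a, from 113 ± 27.2 to 15.9 ± 3.76 CPM and from 30.9 ± 9.20 to 4.35 ± 1.22 CPM.

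Metabolic lists went in different directions. Of 20 glycolysis genes 14 were higher and 3 lower (median log2 change 0.92). Slc2a1 (GLUT1), the glucose transporter, rose by 2.34, Aldoa by 2.0 and Aldoc by 2.79. Slc16a1, a lactate transporter in the same list, fell from 375 ± 86.5 to 38.4 ± 17.1 CPM (log2 difference -3.40, SE 0.15, adjusted p = 2.13e-09). Of 22 tricarboxylic acid cycle genes 10 were lower (45.5%, against 31.2% of all genes tested) and 3 higher (13.6%, against 28.7%). Idh2, an isocitrate dehydrogenase, led the falls, from 188 ± 17.4 to 41.8 ± 4.43 CPM. The succinate enzymes Suclg2 and Sdha rose by 0.83 and 0.69 and Sdhd fell by 0.64. Of 33 nuclear genes of oxidative phosphorylation 11 were lower (33.3%, against 31.2% of all genes tested), 1 higher and 21 did not pass, the largest fall being -0.87 for Cox7a2, followed by Uqcrq (-0.72), Cycs (cytochrome c, -0.60) and Ndufa4 (-0.57). Scaled by library totals, 25 of these 33 were lower and 0 higher, and without mouse 3 the counts were 6 and 0.

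Of 17 one-carbon and serine genes 9 were lower (52.9%, against 31.2% of all genes tested) and 3 higher (17.6%, against 28.7%). Shmt1 measured -2.25, the serine synthesis enzyme Psat1 -2.08, Mthfd2, a mitochondrial folate enzyme, -1.49 and Phgdh, the first enzyme of serine synthesis, -0.98. Ribosome biogenesis had 7 of 24 higher and 3 lower with a median of 0.20, a share of higher genes (29.2%) next to the 28.7% of all genes, and under library totals the direction turned, with 5 higher and 8 lower. The ribosome assembly genes Rrp12 and Nop14 rose by 1.16 and 1.11, the RNA polymerase I subunit Polr1b by 0.97 and Mybbp1a by 0.93. In cholesterol synthesis 2 of 18 rose (11.1%, against 28.7% of all genes tested) and 6 fell (33.3%, against 31.2%). Srebf2, the sterol-sensing factor, measured 1.61, Idi1 -0.97 and Mvk -0.69. The call of Mvk was lost without mouse 1, 2 or 3. The median of this list, -0.06, turned to 0.10 without mouse 3 and to 0.11 under a filter of 10 CPM. Of 22 interferon response genes 11 were higher and 2 lower, with Ifit3 up by 2.10, Oas3 up by 2.05, Ifi44 down by 3.02 and Mx1 down by 2.80.

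The 15 largest rises included genes of no list. Extl1, a heparan sulfate glycosyltransferase, had 1 count in all 4 pro-B/pre-B libraries and 440 in the 4 mature libraries. The ratio by library totals, without TMM, was 475.5 (exact 95% interval 84.9 to 18824). Pxdc1 measured 3.04, 1.62, 2.32 and 1.71 CPM in pro-B/pre-B and 229, 243, 238 and 216 CPM in mature libraries (log2 difference 6.72, SE 0.17, adjusted p = 1.04e-10). Each mature library of Pxdc1 was over 70 times the highest pro-B/pre-B library. Crisp3, Srms, Rasgef1b and Slc4a11 rose by 7.04, 6.35, 5.74 and 5.60. Srms is a tyrosine kinase, Rasgef1b an exchange factor for small GTPases, Slc4a11 a membrane transporter, and Crisp3 a secreted cysteine-rich protein.

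Several of the largest falls were in genes of none of the 36 lists. Fxyd6, a regulator of the sodium pump, had 414 counts in pro-B/pre-B libraries and 0 in mature libraries. By library totals, without TMM, it was thus at least 128-fold lower against 3 counts over the group. Library totals move log2 changes by -0.26 against TMM, so the bounds and count ratios of falls given here are larger than under TMM. Fmn2, a formin, and Lrrc10b were at least 117-fold and 99.9-fold lower on the same terms. Slit1, an axon guidance ligand, had 776 and 2 counts, a ratio of 359 (exact 95% interval 99.1 to 2969.9). Tmem132e measured 81.1, 75.7, 65.8 and 88.4 CPM in pro-B/pre-B libraries and 0.724, 0, 0 and 1.14 CPM in mature libraries. In all 4 mice the gene was abundant before and at or near 0 after. Arpp21, a phosphoprotein first described in striatum, fell by 7.59, and P2rx3, an ATP-gated channel of sensory neurons, by 6.93. Rbm24, an RNA-binding protein, had 913 and 3 counts, a ratio of 282 (96.1 to 1368), and Adam11 382 and 2 counts, a ratio of 177 (48.6 to 1465). Uchl1os, with 435 and 2 counts, is antisense to Uchl1, and none of the sources used here says whether counting used strand.

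The natural killer receptor genes Klra23, Klra13-ps, Klra12 and Klra21 were also among the 15 largest falls, with 339 to 402 counts in pro-B/pre-B libraries and 1 or 2 in mature libraries. The ratios, by library totals without TMM, were 168 to 372, with exact 95% intervals from as low as 46.2 to as high as 14729. They are near-identical relatives whose reads cannot be assigned with certainty. Markers of natural killer cells moved with them: 9 of 10 were lower in mature cells, 0 higher, and their summed level was 189 to 282 CPM in pro-B/pre-B and 36.1 to 46.4 CPM in mature libraries. Ncr1 fell from 18.6 ± 4.55 to 0.691 ± 0.586 CPM and Klrb1c (NK1.1) from 35.4 ± 10.6 to 1.59 ± 0.850 CPM. The part of these cells in the change of the Klra genes was not tested.

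Markers of plasmacytoid dendritic cells were lower in 9 of 11 cases and higher in 1, and summed to 848 to 1201 CPM in pro-B/pre-B and 102 to 139 CPM in mature libraries. Siglech, their surface lectin, measured 219, 227, 248 and 305 CPM and then 7.73, 10.9, 5.62 and 13.7 CPM (log2 difference -4.78, SE 0.17, adjusted p = 6.24e-10). Early lymphoid genes that these cells also express, such as Flt3, Ccr9 and Lair1, fell with them, and their part in those changes was not tested. T cell markers were lower in 7 of 9 tested cases (5 of 9 without any 1 mouse) at sums of 57.2 to 78.1 CPM and 15.0 to 32.1 CPM; Cd4, which plasmacytoid dendritic cells also carry, led them at -3.44, while Cd3e, a defining chain of the T cell receptor complex, measured 0.03 and did not pass. Plasma cell genes were lower in 5 of 8 tested cases (3 without mouse 3, without mouse 4 or without the replicate block) and higher in 1, led by Slamf7 at -2.03, Derl3 at -1.95 and Sdc1 (CD138) at -1.90; their sums were 933 to 1128 CPM and 606 to 711 CPM.

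Markers of myeloid and red cells went the other way. Neutrophil and monocyte markers were higher in 15 of 18 cases and lower in 0, summing to 4288 to 6381 CPM in pro-B/pre-B and 12115 to 18989.9 CPM in mature libraries. S100a8, a member of this list, measured 840.5, 642, 1253 and 1241 CPM and then 3743, 3006, 3171 and 2692 CPM (log2 difference 1.68, SE 0.18, adjusted p = 6.89e-06). Erythroid markers were higher in 11 of 12 cases and lower in 0, and summed to 1409 to 3268 CPM in pro-B/pre-B and 3812 to 10740.2 CPM in mature libraries. Hba-a1 measured 628, 487, 363.5 and 977 CPM and then 3467, 3123, 1029 and 2375 CPM. Its copy Hba-a2 had the same counts, so this measurement enters the 11 of 12 and the sums more than once. Mouse 3 was the lowest in both populations for Hba-a1. Of 8 tested basophil, mast cell and megakaryocyte markers 6 were higher and 0 lower, with sums of 28.8 to 51.9 CPM and 53.5 to 118 CPM. No marker of the natural killer, plasmacytoid dendritic, T cell, myeloid, erythroid or basophil lists was at 0 counts over either population. Of 11 stroma and endothelium markers 3 passed the count filter; the endothelial genes Cdh5 and Kdr fell by 4.68 and 3.96 from 4.59 ± 0.848 and 3.84 ± 1.24 CPM, and Cxcl12 rose by 1.58.

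**Figure D4:**
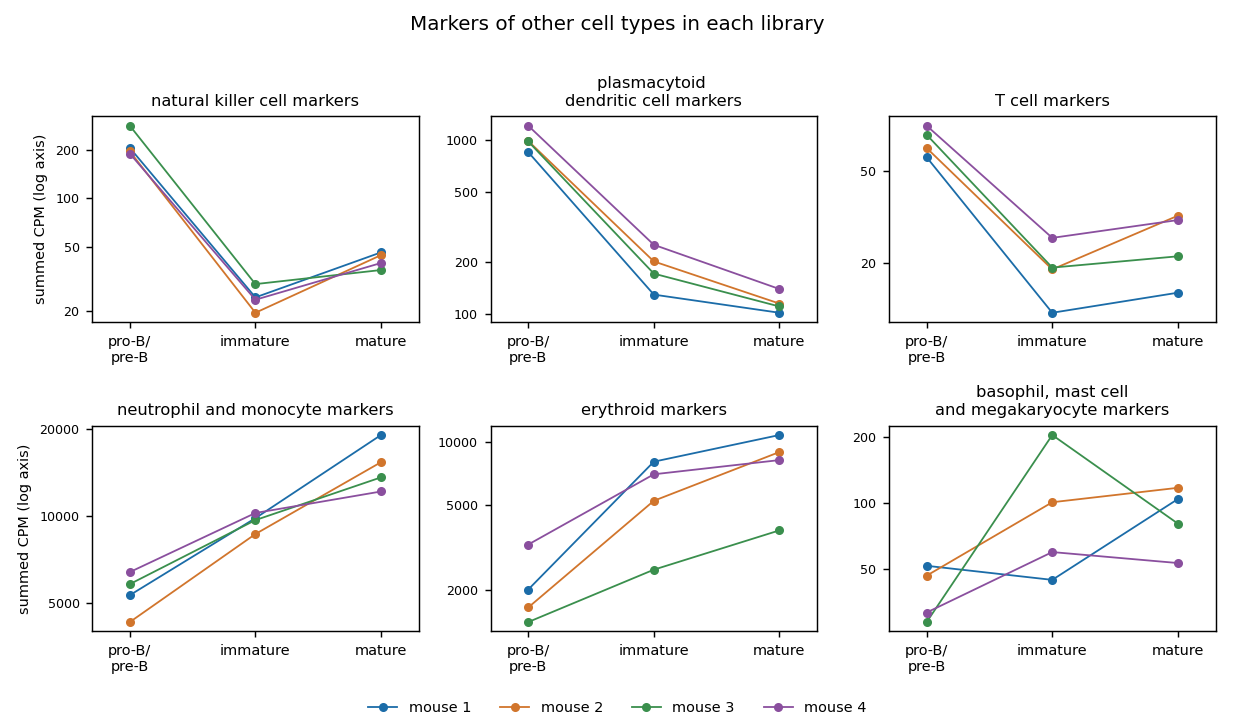
Summed CPM (log axis) of the markers of 6 other cell types in the libraries of each stage; each line joins the libraries of 1 of 4 mice. Natural killer, plasmacytoid dendritic and T cell markers are higher in every pro-B/pre-B library than in any mature library, and neutrophil and erythroid sums are higher in the mature library of every mouse.

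The immature libraries placed these changes between the end stages. The first step (immature against pro-B/pre-B) had 2955 genes higher (24.6%) and 3008 lower (25.1%), and the second step (mature against immature) had 1865 higher (15.5%) and 2025 lower (16.9%). Of the 3449 genes higher in mature cells, 647 passed in both steps, 1451 in the first alone, 628 in the second alone, 528 in neither and 195 passed in a step against the final direction. Of the 3744 lower genes, the same classes held 761, 1541, 653, 589 and 200. Both steps share the immature libraries, so no relation between them is read.

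The falls of Igll1 and Il7r passed in the first step alone. Igll1 stood at 466, 5.05 and 6.91 CPM in pro-B/pre-B, immature and mature cells, and Il7r at 282, 9.59 and 6.34 CPM in the same order. Rag2 and Myb fell in both steps, with log2 changes of -5.28 and -2.0 for Rag2 and -3.55 and -1.71 for Myb. Gains in the first step alone included Cd40 (2.53 and 0.25 in the 2 steps), Tlr1 (4.36 and 0.30) and Bcl2 (2.72 and 0.30).

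Of the 14 class II presentation genes higher in mature cells, 12 passed in both steps, as did 18.8% of all genes higher in mature cells. H2-Aa went through 1549.8 ± 161 CPM and Ciita through 165 ± 32.1 CPM. Ccr6 rose by 3.28 in the first step and 4.12 in the second, and Clec2i in the second alone (2.31). The mitosis list had a median log2 change of -1.08 in the first step and -2.48 in the second, and 30 of the 34 genes passed in both; its summed level had a median of 7601, 3542 and 716 CPM over the libraries of the 3 stages in order. Mki67 measured 65.1, 175, 354 and 273 CPM in the immature libraries, a spread of over 5-fold in which mouse 1, at the top of the pro-B/pre-B libraries, was the lowest.

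Some genes peaked or dipped at the immature stage. A gene counted as transient when both steps passed in opposite directions, which held for 517 genes highest (4.31%) and 442 lowest (3.68%) there. Of the 517, 303 did not pass between the end stages. Without mouse 4 the numbers were 303 and 210, and without mouse 3 there were 288 lowest. Ccnd2, the D cyclin used after antigen receptor signals, measured 70.3, 67.3, 60.5 and 35.2 CPM in pro-B/pre-B, 539, 513, 508 and 397 CPM in immature and 23.7, 52.0, 32.9 and 36.4 CPM in mature libraries. The immature libraries stood above all others, at 3.43 on the log2 scale over the mean of the end stages (adjusted p = 7.17e-09), while Ccnd3 fell through 403 ± 21.1 CPM. Between the end stages Ccnd2 was lower by 0.71 (adjusted p = 0.0111), a call lost without mouse 1 (adjusted p = 0.0718) and without mouse 3 (0.0764).

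Ms4a1 peaked at 5116 ± 848 CPM between 143 ± 32.5 and 2367 ± 245 CPM, Fcrl5 at 45.1 ± 10.1 CPM and Cfp (properdin), a complement component, at 302 ± 28.5 CPM against 28.5 ± 7.46 and 39.8 ± 4.34 CPM. The related repressors Bhlhe40 and Bhlhe41 stood 3.16 and 3.21 above the midpoint, and Dusp10, a phosphatase for stress kinases, 3.17. Agbl1 peaked at 21.8 ± 3.10 CPM, against 11.7 ± 4.43 CPM in pro-B/pre-B and 0.644 ± 0.334 CPM in mature cells. Its log2 change was 0.95 in the first step and -5.09 in the second. Of 19 tested immediate early factors 2 peaked and 1 dipped, and of 16 NF-kB subunits and inhibitors 3 peaked and 2 dipped. Among the peaks, Egr1 measured 9.00, 102 and 34.9 CPM and Nfkbid 50.8, 286 and 67.5 CPM over the 3 stages. Both were named after their values were seen. In the ribosome biogenesis list 9 of 24 genes peaked, and in the one-carbon list 7 of 17.

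Dips were led by Vpreb1, at 347 ± 217 CPM in pro-B/pre-B, 3.25 ± 0.752 CPM in immature and 7.29 ± 1.08 CPM in mature cells. Vpreb1 was low in both later stages, with log2 changes of -6.61 in the first step and 1.19 in the second. Gpc2, a glypican, Zfp354b, a zinc finger gene, Igflr1 and Fam212a followed, at -3.52, -3.08, -3.40 and -3.08 against the midpoint. Igflr1 measured 1.09, 4.80, 15.6 and 14.5 CPM in mature libraries, and that of mouse 1 lay within the immature range of 0.633 to 2.79 CPM. Between the end stages Igflr1 was lower by 1.37 (adjusted p = 0.00377). That call was lost without the replicate block (adjusted p = 0.166) and in the fit of all 24 libraries (0.0638). Gpc2 and Zfp354b were also low in both later stages. Gpc2 had 8 counts in immature and 25 in mature libraries (0.178 and 0.690 CPM), and Zfp354b 15 and 38 (0.381 and 1.09 CPM). Their log2 changes were -5.24 and -4.69 in the first step and 1.80 and 1.46 in the second. Fam212a measured 15.3, 11.4, 19.7 and 7.84 CPM in pro-B/pre-B, 2.40, 1.78, 2.37 and 1.95 CPM in immature and 26.8, 27.0, 22.5 and 22.4 CPM in mature libraries. Its immature libraries lay below all others. Cxcr4 dipped to 37.3 ± 8.44 CPM, -1.24 against the midpoint.

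**Figure D5:**
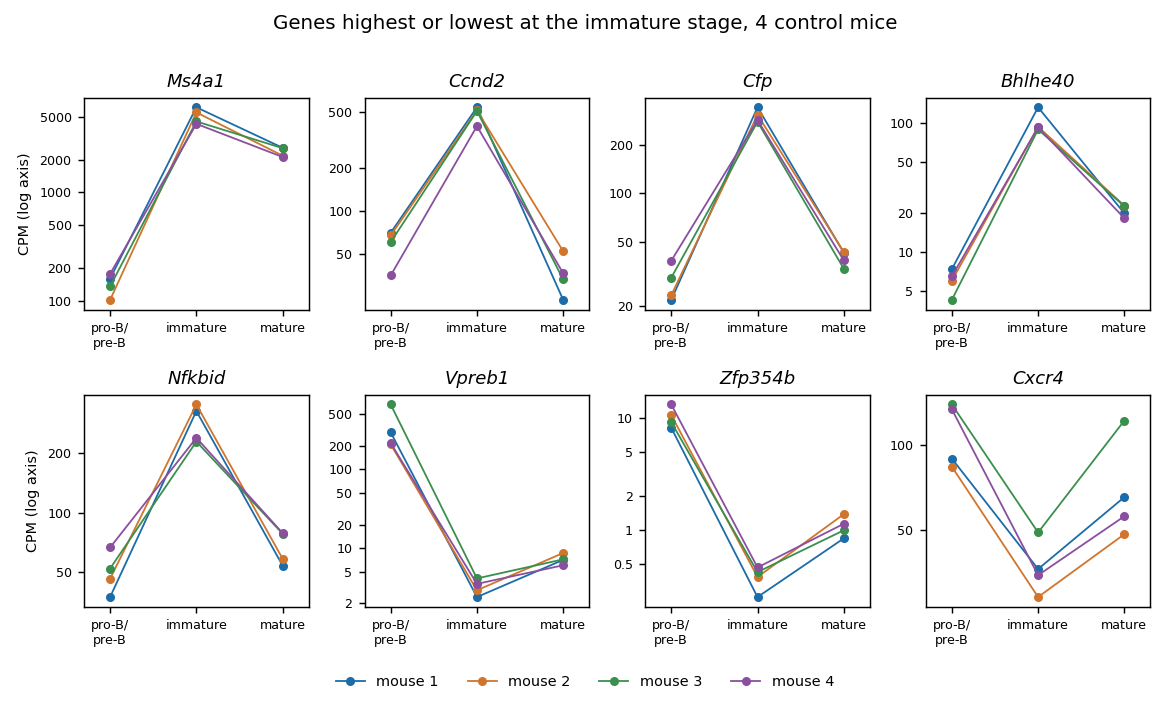
Level in CPM (log axis) of 8 genes by stage; each line joins the 3 libraries of 1 of 4 mice. Ms4a1, Ccnd2, Cfp, Bhlhe40 and Nfkbid are highest in the immature library of every mouse, and Vpreb1, Zfp354b and Cxcr4 are lowest there.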

How the data were processed

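RNA was taken with the RNeasy plus micro kit from cells sorted into lysis buffer and libraries came from the SMARTer Universal Low Input RNA Kit, per the labels' protocols. The authors deposited 1 table of raw gene counts (24421 genes, 24 libraries). The submitters' processing notes name HISAT2, featureCounts, DESeq2, CASAVA, FastQC, Trim Galore and the build mm10. None of the sources used here gives versions, settings or whether counting used strand. No molecular identifiers are described, so intervals and limits cover counting error only.

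From the counts, edgeR 4.0.16 (R 4.3.3) kept 12006 genes with filterByExpr, scaled libraries by TMM and tested mature against pro-B/pre-B with the quasi-likelihood test, with mouse as a block and a Benjamini-Hochberg adjusted p of 0.05. Mouse comes from the labels; deviations of libraries of 1 mouse correlated at 0.297, 0.128, 0.195 and 0.256 over 5000 genes. The immature steps, the midpoint contrast and the TMM scaling of the CPM values shown used all 12 control libraries. Errors of means are SD over 4 mice, and each log2 change has its SE in the model.

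Members and gene lists were chosen with earlier results of these data known. The text names Vhl, markers of the sorts and of other cells, the 15 largest rises and falls at a mean log2 CPM of at least 2 with no overlap between the groups and no clone symbols, up to 4 called members of each list, members of lists of at most 16 genes that did not pass, and 8 peaks and 5 dips; a few of these are not reported here. Alternatives covered the block, the libraries fitted, scaling, filters, DESeq2 1.42.0, limma-voom (limma 3.58.1) and leaving out each mouse. On simulated counts for 12006 genes, the comparison recovered 84% of 100 2-fold and 97% of 100 4-fold changes, and 3.21% of calls were false. The simulation left all other genes unchanged, balanced rises and falls, and held no differences between mice. In the data 59.9% of genes passed, so these rates cannot be carried over to the calls reported here. No pair of libraries agreed within sampling noise.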

Additional observations from a re-analysis of the deposited data

Results flagged for a closer look

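Of 664 sets of 4 libraries (1 gene, or 1 summed list, at 1 stage), 42 held 1 library whose gap to its nearest neighbour, as a share of the whole range, was past Dixon's 95% value. Chance flags about 1 in 20 such sets. Each is given with its level, the range of the other 3 libraries and, in brackets, that share.

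The pro-B/pre-B library of mouse 1 was high for Egr3 at 2.67 against 0.540 to 0.836 CPM (0.861). Low there were Chuk at 79.9 against 88.7 to 90.1 CPM (0.859) and Ifi44 at 5.35 against 8.65 to 9.03 CPM (0.898). The pro-B/pre-B library of mouse 3 was high for Cdc25c at 49.6 against 34.0 to 35.8 CPM (0.886), Fxyd6 at 19.0 against 5.94 to 6.09 CPM (0.989), Itgax at 22.8 against 14.9 to 16.0 CPM (0.854), Klra12 at 14.3 against 4.63 to 6.04 CPM (0.854), Klra23 at 17.6 against 5.25 to 7.30 CPM (0.834), Rag2 at 212 against 162 to 169 CPM (0.867), Slit1 at 26.7 against 13.4 to 15.0 CPM (0.881) and Vpreb2 at 118 against 35.3 to 48.0 CPM (0.846). Low there were Dusp10 at 12.4 against 16.5 to 17.2 CPM (0.853) and Il2ra at 77.0 against 128 to 136 CPM (0.868). The pro-B/pre-B library of mouse 4 was high for Ier5 at 93.4 against 68.9 to 71.2 CPM (0.908). It was low for Vpreb3 at 869 against 926 to 934 CPM (0.886).

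The immature library of mouse 1 was high for Bank1 at 836 against 688 to 694 CPM (0.963), Bhlhe40 at 132 against 88.8 to 93.0 CPM (0.901) and Ly96 at 12.8 against 11.2 to 11.4 CPM (0.894). Low there were Cd22 at 538 against 743 to 782 CPM (0.840), Map3k14 at 30.6 against 60.0 to 61.6 CPM (0.95), Mybbp1a at 167 against 270.1 to 289.9 CPM (0.839) and Oas3 at 4.56 against 12.1 to 12.7 CPM (0.933). The immature library of mouse 2 was high for Bcl6 at 85.8 against 64.3 to 65.4 CPM (0.95) and Tlr3 at 0.764 against 0.186 to 0.254 CPM (0.883). It was low for Prkdc at 39.0 against 56.5 to 59.4 CPM (0.854). The immature library of mouse 3 was high for Ccr6 at 12.6 against 4.46 to 5.44 CPM (0.880). The immature library of mouse 4 was high for Dusp5 at 33.7 against 26.4 to 27.1 CPM (0.895), Igflr1 at 2.79 against 0.633 to 0.892 CPM (0.880), Kdr at 3.44 against 0.127 to 0.169 CPM (0.987), Lair1 at 13.9 against 6.50 to 6.58 CPM (0.989) and Sdc1 at 23.2 against 13.2 to 14.0 CPM (0.913). It was low for the sum of plasma cell genes at 690.3 against 854 to 873 CPM (0.893).

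The mature library of mouse 1 was high for Igll1 at 11.1 against 5.37 to 5.61 CPM (0.957) and Mybbp1a at 223 against 195 to 197 CPM (0.908). Low there were Tcf12 at 45.9 against 56.1 to 56.8 CPM (0.934). The mature library of mouse 2 was high for Egr1 at 46.2 against 30.3 to 31.9 CPM (0.897), Id3 at 279 against 224 to 233 CPM (0.842) and Tcf4 at 206 against 135 to 136 CPM (0.988). It was low for Cd40 at 139.8 against 176 to 183 CPM (0.833) and Tlr3 at 1.39 against 4.09 to 4.37 CPM (0.907). The mature library of mouse 3 was low for Rag1 at 3.12 against 5.92 to 6.09 CPM (0.942). The mature library of mouse 4 was high for Slc4a11 at 12.3 against 9.48 to 9.66 CPM (0.937).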

How the results depend on the processing

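Counts of called genes kept within 1.5 times of those reported under RLE and upper quartile scaling (3430 to 3449 higher, 3753 to 3769 lower), no filter (3465 and 3972), DESeq2 (3311 and 3612), limma-voom (3546 and 3769), the 12 control libraries (3539 and 3537) and all 24 libraries (3752 and 3798). Without the replicate block 3265 were higher and 3512 lower. Scaling by library totals gave 2288 higher, 410 higher in both steps, 884 higher and 2349 lower in the first step alone. A filter of 10 CPM in 4 libraries left 1259 genes at least 2-fold lower; it tests fewer genes. Leaving out 1 mouse gave 3056 to 3294 higher, 3356 to 3567 lower, 414 to 561 higher in both steps, 106 to 192 higher and 104 to 177 lower genes with a step against the final direction, 303 to 550 peaks, 210 to 440 dips, and 1337 to 2224 genes above and 946 to 1592 below the midpoint. From the genes with a step against the final direction onward, the lowest values came without mouse 4; each such fit has fewer samples.

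Of the 217 single genes looked at, none with a call turned its direction; 14 lost the call under at least 1 alternative and 10 gained one. Leaving out 1 mouse moved these log2 changes by enough to change the fold by over 1.5 times: without mouse 1, Egr3 to 5.12, Klra21 to -9.23 and Slc4a11 to 6.34; without mouse 2, Extl1 to 9.99, Mycn to -4.32 and Tlr3 to 3.39; without mouse 3, Adam11 to -9.51, Kdr to -5.06, Klra12 to -8.81, Klra13-ps to -8.90, Klra23 to -9.01, Mx1 to -3.41, P2rx3 to -7.83 and Rbm24 to -8.77; without mouse 4, Adam11 to -6.11, Fcrl5 to 5.62, Il9r to 7.17 and Tmem132e to -8.21. Among the lists, the median of ribosome biogenesis turned from 0.20 to -0.06 under library totals, that of cholesterol synthesis from -0.06 to 0.10 without mouse 3 and to 0.11 under the 10 CPM filter, and that of stroma and endothelium, with 3 genes, to 0.22 in the fit of all 24 libraries, which tests more of its members. Library totals gave 7 lower plasma cell genes. The 10 CPM filter left 1 called T cell marker, 3 plasma cell genes, 7 erythroid and 2 basophil, mast cell and megakaryocyte markers. The cause was not tested for the other changes. At these depths 3 counts are 0.256 to 0.352 CPM, which limits folds of genes listed near 0.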
